A study of Caenorhabditis elegans with 21 samples.

Results

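Early embryos of Caenorhabditis elegans carrying mutations in both nrde-3 and met-2 were compared with wild-type embryos by total RNA sequencing. The comparison rests on 6 of the 21 libraries of the series, 3 of the double mutant and 3 of the wild type, chosen by the names of the deposited columns. The wild type is the Bristol strain N2. The double mutant carries met-2(n4256) on chromosome III and nrde-3(tm1116) on X. The other genotypes, used here for values set side by side, are nrde-3(tm1116) alone, lin-61(tm2649) alone, and the double mutants lin-61 met-2, nrde-3 set-25 and lin-61 set-25, with set-25(n5021), again with 3 libraries each. All embryos were grown at 20 °C and harvested at 1 to 300 cells, earlier than the bean stage. For all samples the labels give a synchronisation time of 60 to 65 hours. The title of the series concerns parallel routes, through NRDE-3 and through LIN-61, that bring a histone methyltransferase to chromatin. No gene was assigned to any window, because the counts are placed on build ce10 and the annotation at hand is of another build. The mutated genes and the markers of embryonic tissue were therefore not read out, and sequences are not shown.

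NRDE-3 is an Argonaute protein of somatic cells. It carries small RNAs made by RNA-dependent RNA polymerases into the nucleus, where it takes part in the silencing of matching nascent transcripts. MET-2, related to mammalian SETDB1, deposits mono- and dimethylation on H3K9, a lysine of the histone H3 tail, and SET-25 can add trimethylation. In worms these marks are found mainly on the arms of the autosomes, over repeats and silent genes, and they help to hold such chromatin at the nuclear periphery.

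The measure was the number of reads in each window of 500 bp along the 6 nuclear chromosomes, 200547 windows in all, both strands together. Levels are given as CPM, the reads of a window relative to the library total, scaled by TMM, a method that assumes most windows do not change. A window is named by its chromosome and first base. N2 libraries held 54839178 to 67553226 reads and nrde-3 met-2 libraries 24300452 to 28834312. The titles of the N2 libraries begin with 875 and those of nrde-3 met-2 with 1121, so genotype and library prefix cannot be told apart between these groups. N2 and lin-61 have prefix 875, and the other 5 genotypes have 1121. The spread within the group was wider in nrde-3 met-2, with a biological coefficient of variation of 0.338 against 0.161 in N2 over windows of at least 1 CPM. The labels state 2 independent biological replicates while the titles number 3, and a p-value here therefore reflects how far libraries scatter, which may be technical in part. Where a group held 0 reads in a window, up to 3 reads over its 3 libraries are allowed, 0.0321 CPM in nrde-3 met-2. Such floors and the intervals below account for counting error alone, as no molecular identifiers were used to tell reads from molecules.

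Before the comparison, reads in silent windows were measured. A total of 32328 windows held at most 2 reads over the 6 libraries of N2 and lin-61, and these are called quiet windows here. In nrde-3 met-2 they held a mean of 4.11 reads in library a, 2.75 in b and 8.77 in c, or 0.14, 0.0908 and 0.259 CPM per window. In nrde-3, which shares the prefix, the means were 0.124 to 0.159 reads, or 0.00461 to 0.0058 CPM. All 3 libraries of the double mutant thus stood above all 3 of nrde-3, by 31.2-fold on the group means. A 3-against-3 exact permutation test cannot give a two-sided p below 0.1. The raised level was found on every chromosome, at means of 3.58 to 4.36 reads per quiet window in library a, 2.22 to 3.28 in b and 8.27 to 9 in c. The quiet windows with no read made up 18.3, 24.1 and 2.2% in libraries a, b and c, against 87.4 to 90.5% in the nrde-3 libraries. Quiet windows were chosen on the N2 and lin-61 counts, so no ratio to those genotypes is given.

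**Figure D1:**
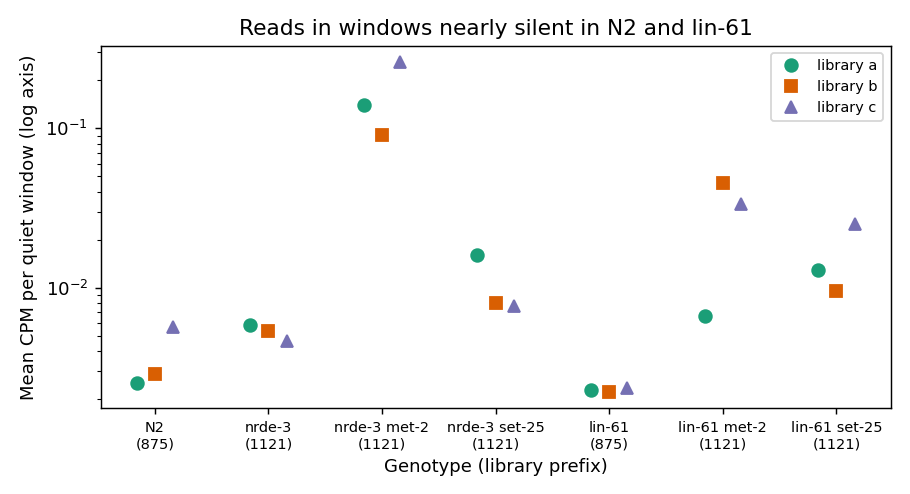
Mean level per quiet window (CPM, log axis) in each of the 21 libraries, by genotype with the library prefix in brackets; each symbol is 1 library. The 3 libraries of nrde-3 met-2 lie at 0.0908 to 0.259 CPM, and libraries b and c of lin-61 met-2 come next at 0.0451 and 0.0338 CPM.

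Against N2, 20926 of 97776 tested windows were higher in nrde-3 met-2 and 13911 were lower (edgeR quasi-likelihood test, Benjamini-Hochberg adjusted p below 0.05). These are 21.4% and 14.2% of the tested windows. By the values alone, all 3 double mutant libraries lay above all 3 N2 libraries in 27% of tested windows and below them in 22.8%. The higher windows had little signal in N2. Their median was 0.0979 CPM in N2 and 0.503 CPM in the double mutant, against 1.18 and 1.24 CPM over all tested windows. The lower windows were well expressed, at a median of 11.8 CPM in N2 and 5.15 CPM in the double mutant. The median log2 fold change was 2.28 for the higher windows, -1.13 for the lower ones and 0.06 over all tested windows. Of the higher windows, 20312 rose by at least 2-fold, 4000 by at least 16-fold and 1050 by at least 64-fold. Of the lower ones, 8888 fell by at least 2-fold and 8 by at least 16-fold.

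Both counts depend on how silent and abundant windows are treated. With TMM computed over windows of at least 10 CPM, the median log2 fold change over the tested windows moved up by 0.45, and 31634 windows were higher and 5530 lower. The share of higher windows among the called ones was then 85.1%, against 60.1% before. With the mean count of quiet windows taken off each library, 7754 were higher and 7180 lower of 82135 tested windows. Without nrde-3 met-2 replicate b, 50661 were higher and 27270 lower, and 138423 windows passed the filter on low counts.

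The difference from N2 changed in order with the level of a window. Of 10667 tested windows under 0.1 CPM in N2, 10623 were called higher. These windows passed the filter on low counts mainly through their reads in nrde-3 met-2, so that share carries no information of its own. From 0.1 to 1 CPM, 9325 of 35814 windows were higher and 580 lower, and the median log2 fold change was 0.6. The lower part of this class passed the filter through nrde-3 met-2 reads as well, so these values depend in part on it. From 1 to 10 CPM more windows were lower than higher, with 890 higher and 5679 lower of 30635 windows and a median of -0.26. From 10 to 100 CPM, 84 were higher and 7052 lower of 19346, with a median of -0.49. The 1235 windows of 100 to 1000 CPM had 4 higher and 550 lower. The 79 windows of 1000 CPM and over had 0 higher and 50 lower, at a median of -1.49. The direction from 1 to 10 CPM depended on the scaling. With TMM over windows of at least 10 CPM that class held 4175 higher and 1869 lower windows at a median of 0.19, and the medians of the 3 classes above it were -0.04, -0.24 and -1.05.

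The same order was seen when windows were ranked by their level in lin-61, which takes no part in the comparison. The tested windows were the same, so the filter on low counts acts on the low classes of this ranking too. Medians were then 0.6 from 0.1 to 1 CPM, -0.19 from 1 to 10 CPM, -0.48 from 10 to 100 CPM, -0.71 from 100 to 1000 CPM and -1.4 above. With TMM over windows of at least 10 CPM the median from 1 to 10 CPM was 0.27 in this ranking. In the top class the median log2 ratio to N2 was -1.99 in library a, -1.28 in b and -2.29 in c. The decline at high levels was present in all 3 libraries of the double mutant and was smallest in b. The 9 libraries of nrde-3, nrde-3 set-25 and lin-61 set-25 also declined at high levels, as the plot of ratio by level shows. In the lowest of the 30 bins they lay at -0.11 to 0.2, below the 3 libraries of nrde-3 met-2 at 1.73 to 2.24. Windows of that bin passed the filter on low counts mainly through nrde-3 met-2 reads, so the gap carries no information of its own. The same holds in part for the bins next to it. The libraries labelled lin-61 met-2 were not included there.

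**Figure D2:**
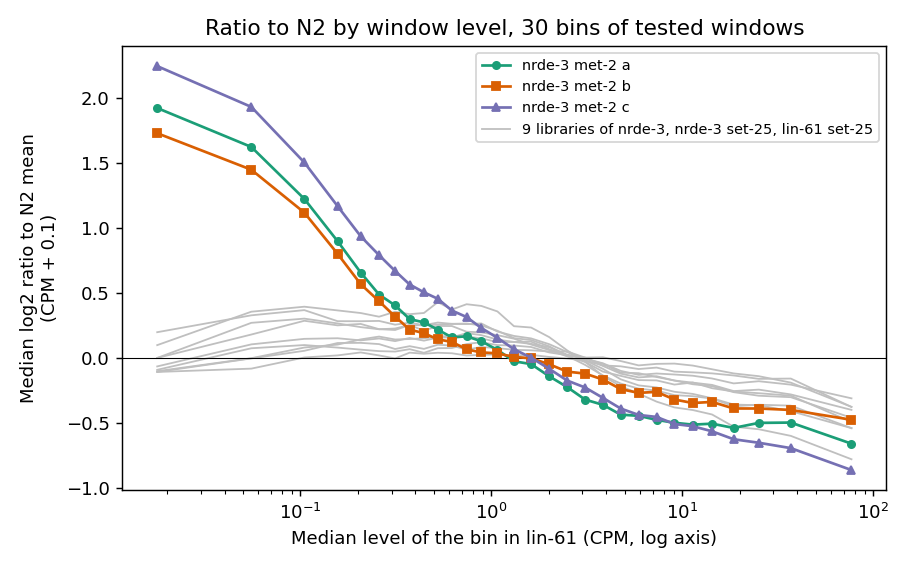
Median log2 ratio to the N2 mean, with 0.1 CPM added to both, for tested windows in 30 bins of equal size ranked by their level in lin-61 (CPM, log axis); coloured lines are the 3 nrde-3 met-2 libraries and grey lines the 9 libraries of nrde-3, nrde-3 set-25 and lin-61 set-25. All lines run below 0 at the right, and the 3 coloured lines rise above the grey ones at the left. Windows at the far left passed the filter on low counts mainly through reads in nrde-3 met-2.

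Since N2 has another prefix, nrde-3 met-2 was also tested within prefix 1121, against the mean of nrde-3, nrde-3 set-25 and lin-61 set-25. Of 93966 tested windows, 4548 were higher (4.84%) and 1154 lower (1.23%) in nrde-3 met-2. The higher ones had a median of 0.744 CPM, against 0.177 CPM in the other 3 genotypes. Many windows of so low a level passed the filter on low counts through their reads in nrde-3 met-2. The excess of higher over lower windows therefore depends in part on that filter. Both tests use the same 3 nrde-3 met-2 libraries. Of the 20926 windows higher than in N2, 13283 were tested within the prefix and 3302 were higher there too. Of the 13911 lower windows, 13691 were tested and 507 were lower there too. Leaving out nrde-3 met-2 replicate b raised the numbers within the prefix to 14921 higher and 1499 lower of 109052 tested windows. Leaving out 1 library of the other genotypes gave 13445 to 15721 higher and 2409 to 4748 lower. More windows were tested there too, 107213 to 110858 against 93966. With nrde-3 alone as the reference, 2763 were higher and 12 lower of 80602 tested windows.

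Levels of the lower windows in the other genotypes are given side by side, since these windows were called against the same N2 libraries. Their median was 11.8 CPM in N2, 10.5 in lin-61, 6.92 in nrde-3, 6.6 in nrde-3 set-25, 6.07 in lin-61 set-25, 6.68 in lin-61 met-2 and 5.15 in nrde-3 met-2. Of the 975 windows that fell by at least 4-fold, 57 were also lower within the prefix. These 975 had a median of 13.7 CPM in N2, 12.2 in lin-61, 2.61 in nrde-3 met-2, 3.49 in nrde-3, 3.18 in nrde-3 set-25 and 2.82 in lin-61 set-25. Their number was 1119, 2958 and 1471 without replicates a, b and c of nrde-3 met-2, of which 33, 190 and 214 were also lower within the prefix.

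Windows raised well above the level of the quiet windows formed a smaller set. A total of 1749 higher windows had a mean of at least 2 CPM in nrde-3 met-2, a limit set after the values were seen. Their median was 1.14 CPM in N2 and 4.71 CPM in the double mutant. Among the other genotypes of prefix 1121, the medians were 2.38 CPM in nrde-3 and 3.43 in nrde-3 set-25. They were 3.47 CPM in lin-61 set-25 and 3.59 in lin-61 met-2. In lin-61, which shares the prefix of N2, the median was 2.03 CPM. All these levels lay between those of N2 and the double mutant. The windows were chosen as higher in nrde-3 met-2 than in N2, so a level in between tests nothing.

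Of the 1749 windows, 592 were also higher within prefix 1121, and 570 of them were called with background subtracted too. That number follows largely from the limit of 2 CPM, as the background taken off was 0.0908 to 0.259 CPM in nrde-3 met-2. The median of the 592 rose from 0.22 CPM in N2 to 7.06 CPM, with 0.126 CPM in nrde-3, 0.297 in nrde-3 set-25 and 0.291 in lin-61 set-25. These genotypes were the references in the tests that chose the 592, so their low medians test nothing. Libraries with the label lin-61 met-2 were left out of that test and had a median of 1.42 CPM. The median log2 fold change against N2 was 5.38. Without replicates a, b and c of nrde-3 met-2 in turn, the set numbered 646, 542 and 764, of which 511, 445 and 547 belonged to the 592. In 365 of the 592 windows the libraries of the double mutant lay within 4-fold of each other. In 72 windows library b was at least 4-fold above both others, and in 92 at least 4-fold below both. The 592 windows joined into 251 regions, with 156 of a single window and 49 of 4 or more. With each chromosome divided into 3 parts of equal length, they made up 0.663% of tested windows in the outer parts of the autosomes, 0.419% in the central parts and 0.778% on X. For all 3302 higher windows also raised within the prefix, the outer and central parts of the autosomes held 3.25% and 3.29%.

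The longest of these regions show how unequal the 3 libraries were. On I, 10946001 to 10953000 summed to 2.17, 2.3 and 13.5 CPM in N2 and to 80.2, 60.9 and 114 CPM in nrde-3 met-2 libraries a, b and c. On X, 109501 to 114500 held 1.61, 1.69 and 5.99 CPM in N2 and 208, 176 and 256 CPM in nrde-3 met-2. On IV, 4416501 to 4422000 held 6.57, 4.93 and 5.95 CPM against 239, 322 and 148 CPM. In these 3 regions every library of the double mutant lay far above every N2 library, and the nrde-3 means were 0.911, 0.96 and 3.05 CPM. Libraries b and c labelled lin-61 met-2 were raised there too, at 22.1 and 17.5 CPM on I, 80.7 and 57.9 CPM on X and 70.4 and 49 CPM on IV, while library a held 0.595, 1.11 and 2.82 CPM. On III, 5353001 to 5358500 held 2.45, 1.58 and 6.71 CPM in N2 but 3481, 40.7 and 1334 CPM in nrde-3 met-2. On V, 3434501 to 3441500 held 1.17, 1.88 and 3.53 CPM against 208, 10.5 and 89.7 CPM. On X, 4026001 to 4031500 held 4.12, 6.51 and 4.3 CPM against 150, 22.3 and 140 CPM. In the last 3 regions library b was the lowest of the double mutant, and it still lay above all N2 libraries. These regions were picked by length from windows already called, so their levels describe the set and test nothing.

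The windows with the highest fold changes turned the other way, with library b far above a and c. V 16709001 held 0, 1 and 0 reads in N2 and 267, 6727 and 305 reads in nrde-3 met-2 libraries a, b and c. This is 9.13, 222 and 9.01 CPM in the double mutant, and a ratio of reads of 11389 with an exact binomial 95% interval of 2043 to 449887 (log2 fold change 12.96 ± 1.73 SE, adjusted p = 0.000257 in edgeR). The groups did not overlap, but library b alone held most of the reads. II 13985001 rose from 0.105, 0.0876 and 0 CPM to 16.5, 258 and 16.7 CPM, with log2 fold change 10.42 ± 1.29 SE (adjusted p = 0.000198 in edgeR). III 3335501 rose from 0.0876, 0 and 0.163 CPM to 60.8, 193 and 13.3 CPM, with log2 fold change 10.02 ± 1.04 SE (adjusted p = 6.53e-05 in edgeR). In both windows b was again the highest library. V 658001 reached 2.5, 53.9 and 3.31 CPM from 2 reads in N2, a ratio of 1418 (interval 392 to 11720). IV 12584501 reached 0.513, 25.5 and 1.06 CPM from 1 read, a ratio of 1284 (230 to 50781). V 18400001 reached 0.41, 39 and 2.98 CPM from 2 reads, a ratio of 1010 (279 to 8345). The log2 fold changes of III 1252501 and III 3770501 were 9.81 and 9.57, and there too b stood above a and c. Without nrde-3 met-2 replicate b all 8 calls stood, at log2 fold changes of 5.87 to 9.59. In the model with a term for prefix, all 8 lost their call, at log2 fold changes of 5.4 to 10.71 and adjusted p of 0.395 to 0.804 in edgeR.

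All 8 windows were also higher within prefix 1121, with log2 fold changes of 4.69 to 7.17, although the other genotypes were not silent there. At V 16709001 the means were 80 CPM in nrde-3 met-2, 5.87 in lin-61 met-2, 2.54 in lin-61 set-25, 2.4 in nrde-3 set-25, 0.405 in nrde-3, 0.0189 in lin-61 and 0.0073 in N2. At II 13985001 they were 97.1, 15.6, 10.1, 7.08, 0.936, 0.0243 and 0.0643 CPM in the same order. The order over the prefix 1121 genotypes was the same at both, and the spread within genotypes was wide, at 123 and 139 CPM (SD, n = 3) in nrde-3 met-2. Over the 8 windows the level of a library, as a median percentage of the nrde-3 met-2 mean, was 0.133% in lin-61 met-2 library a but 20.2% and 17.3% in b and c. It was 16.2% in lin-61 set-25 library a but 0.136% and 0.674% in b and c. Over the 592 windows it was 1.04%, 30.1% and 22.9% in lin-61 met-2, and 6.9%, 1.31% and 1.9% in lin-61 set-25. Libraries of the same label thus differed at these windows in both groups, and those labelled lin-61 met-2 go against their label at X 372001, described next.

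**Figure D3:**
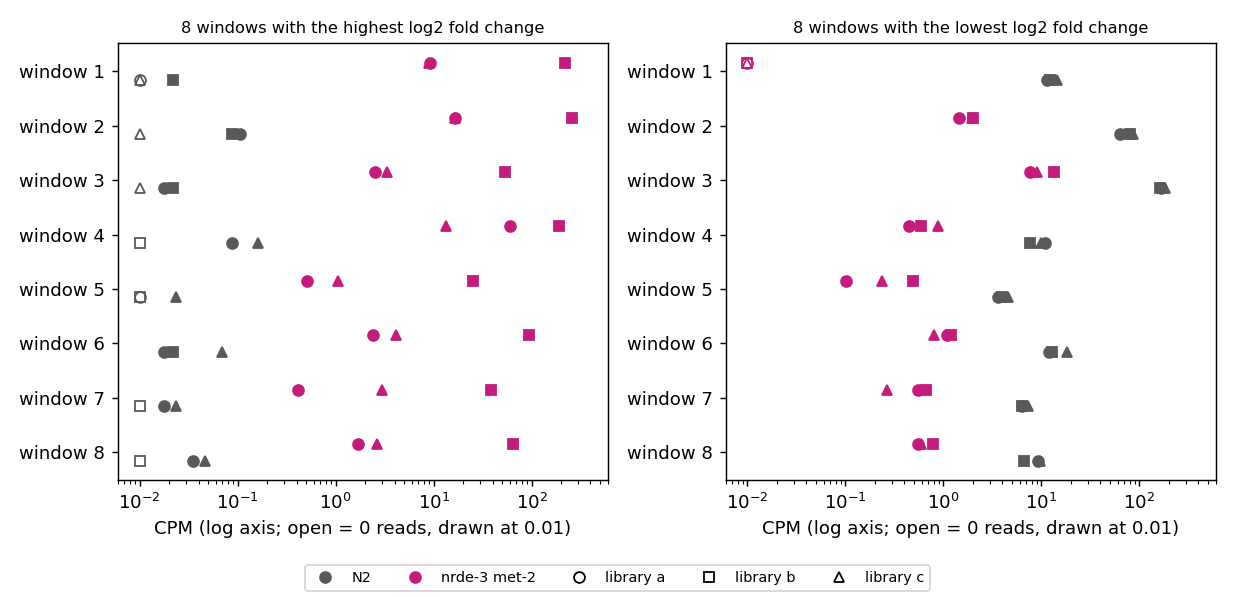
Level (CPM, log axis) in each N2 library (grey) and each nrde-3 met-2 library (pink) for the 8 windows with the highest and the 8 with the lowest log2 fold change, ordered from the most changed at the top; symbols give the library letter. On the left, library b lies far right of a and c in most windows. On the right, all double mutant libraries lie together at the left of N2.

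The windows that fell most were close among libraries. III 13288501 held 654, 562 and 618 reads in N2 and 0 in each nrde-3 met-2 library, so it was at least 392-fold lower (adjusted p = 2.71e-06 in edgeR). It also held 0 CPM in nrde-3 set-25, lin-61 set-25 and lin-61 met-2, and 7.14 ± 0.454 CPM (SD, n = 3) in nrde-3. The loss was thus shared by all 4 genotypes labelled met-2 or set-25, and whether the sequence itself is present there was not tested. X 372001 fell from 64.2, 80 and 87.2 CPM in N2 to 1.44, 2.01 and 1.95 CPM, with log2 fold change -5.42 ± 0.29 SE (adjusted p = 2.66e-06 in edgeR). Among the other genotypes it was low in nrde-3, nrde-3 set-25 and lin-61 met-2, at 2.93, 3.78 and 2.82 CPM, and high in lin-61, at 72 CPM, and in lin-61 set-25, at 49.6 CPM. It thus separated the genotypes labelled nrde-3 from N2, from lin-61 and from lin-61 set-25, while the libraries labelled lin-61 met-2 went against their label. I 7155001 followed the same division, at 10.8, 7.69 and 9.99 CPM in N2 and 0.444, 0.594 and 0.887 CPM in nrde-3 met-2, with 7.91 CPM in lin-61 set-25 and 0.943 CPM in lin-61 met-2. Both windows were also lower within prefix 1121, by -2.06 and -1.78 on the log2 scale (adjusted p = 0.000119 and 0.000272 in edgeR). The reference there includes lin-61 set-25, where both were high. The means were nearer in the genotypes labelled nrde-3, at 1.8 CPM in nrde-3 met-2 against 2.93 and 3.78 in nrde-3 and nrde-3 set-25 for X 372001, and 0.642 against 1.39 and 1.3 for I 7155001.

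The other 5 of the 8 lowest windows were low in every genotype of prefix 1121. I 109001 fell from 166, 162 and 184 CPM in N2 to 7.66, 13.6 and 9.13 CPM, with log2 fold change -4.07 ± 0.3 SE (adjusted p = 5.68e-06 in edgeR). It held 12.4 to 15.3 CPM in the other genotypes of prefix 1121 and 162 CPM in lin-61. Within the prefix its log2 fold change was -0.29 ± 0.2 (adjusted p = 0.417 in edgeR), so no difference was detected there. III 1485001, III 5020501, V 18968001 and I 12486001 had log2 fold changes of -3.84, -3.8, -3.76 and -3.72 against N2. Their means in nrde-3 met-2 were 0.278, 1.03, 0.491 and 0.643 CPM, and in nrde-3 0.306, 1.54, 0.61 and 0.744 CPM.

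Abundant windows moved by smaller steps. IV 11326501 fell from 10301, 10260 and 11473 CPM in N2 to 2817, 3607 and 2101 CPM, with log2 fold change -1.91 ± 0.4 SE (adjusted p = 0.00249 in edgeR). IV 11407001 fell from 16348, 25936 and 25194 CPM to 14266, 4980 and 6693 CPM, and IV 7488001 from 8443, 10737 and 11541 CPM to 6817, 2116 and 2810 CPM. In the latter 2 windows library a lay near the lowest N2 library, and both calls were lost without nrde-3 met-2 replicate c, at log2 fold changes of -1.23 and -1.21. Both were also lost with TMM over windows of at least 10 CPM (-0.92 and -0.93) and with background subtracted (-1.07 and -1.08), and the former with RLE scaling (-1.36). Of the higher windows, IV 2408501 had the highest level in N2, at 163, 170 and 143 CPM against 183, 482 and 325 CPM in nrde-3 met-2. II 11760501 held 97.7, 86.3 and 62.6 CPM against 137, 124 and 150.5 CPM, and I 11356001 held 90.5, 60.3 and 94 CPM against 194, 151 and 109 CPM. These 3 calls were narrow, with adjusted p of 0.0247, 0.0359 and 0.0267 in edgeR. IV 2408501 lost its call without any 1 N2 replicate or without nrde-3 met-2 replicate b, where its log2 fold change was 0.37 against 1.05. I 11356001 lost it without any 1 N2 replicate or without nrde-3 met-2 replicates a or b (0.57 and 0.63 against 0.89). II 11760501 lost it without any 1 of the 6 libraries (0.47 to 0.78 against 0.74). With no filter on low counts all 3 were lost (0.73, 0.38 and 0.55 in the order given). Of these 6 windows none was called within prefix 1121.

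Called windows lay mostly alone or in short runs. Joined across gaps of at most 1 window, the higher windows formed 12723 regions, of which 8643 were a single window, 880 held 4 or more called windows and 76 held 10 or more. The lower windows formed 6961 regions, with 3894 of a single window, 926 of 4 or more and 42 of 10 or more. The 4 longest regions of each direction are described next.

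The longest higher region was a low plateau on III, 13582001 to 13599500, with 33 of 35 windows called. Single windows ranged from 0 to 1.09, 0 to 3.53 and 0.118 to 1.89 CPM in nrde-3 met-2 libraries a, b and c. The medians over its windows were 0.65, 0.759 and 1.27 CPM in these libraries, which is 4.62, 8.35 and 4.9 times the mean of the quiet windows in the same library. In N2 the medians were 0.0701, 0.0657 and 0.139 CPM, and in all 3 nrde-3 libraries they were 0. Libraries b and c of lin-61 met-2 had medians of 0.289 and 0.201 CPM there, and library a had 0. Of the windows, 27 were also called higher within prefix 1121. The windows passed the filter on low counts mainly through nrde-3 met-2 reads, so the numbers called carry no information of their own.

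The next 3 higher regions were raised in nrde-3 as well. X 16878501 to 16895500 summed to 36.9, 45.2 and 54.6 CPM in N2 and 297, 270 and 186 CPM in nrde-3 met-2, a ratio of means of 5.51. II 1440501 to 1455000 held 55.2, 69.2 and 81 CPM against 424, 345 and 231 CPM, a ratio of 4.87. IV 11608001 to 11619000 held 63.6, 83.4 and 92.2 CPM against 459, 352 and 227 CPM, a ratio of 4.34. In the 3 regions nrde-3 held 255, 323 and 324 CPM, nrde-3 set-25 255, 356 and 348 CPM, and lin-61 met-2 251, 361 and 335 CPM. lin-61 set-25 held less, at 87.4, 113 and 130 CPM, and lin-61 was at 46.1, 64.9 and 56.4 CPM. Levels in nrde-3 met-2 and nrde-3 thus lay within the SD of the double mutant, which was 57.5, 96.9 and 116 CPM (n = 3).

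The longest lower regions fell by differing amounts from window to window, between -2.02 and -0.68 on the log2 scale on I and between -1.85 and -0.29 on X. I 4334501 to 4359000 summed to 973, 981 and 731 CPM in N2 and 388, 367 and 241 CPM in nrde-3 met-2, with 48 of 49 windows called and a ratio of N2 to nrde-3 met-2 of 2.7. X 4835501 to 4852500 held 333, 349 and 353 CPM against 165, 174 and 134 CPM, a ratio of 2.19. III 2665001 to 2674500 held 112, 118 and 73.7 CPM against 42.2, 42 and 28.7 CPM, and V 2131501 to 2140000 held 45.5, 36 and 41.9 CPM against 12.4, 9.2 and 12.1 CPM. No library of the double mutant reached an N2 library in any of the 4 regions. The N2 means were 895, 345, 101 and 41.2 CPM. The other genotypes with nrde-3 in their label lay below them, at 474, 218, 46.3 and 9.86 CPM for nrde-3 and 542, 198, 63 and 9.89 CPM for nrde-3 set-25. So did lin-61 met-2, at 521, 203, 67.1 and 17.1 CPM. In lin-61 set-25 the means were 1167 ± 506, 226 ± 49, 215 ± 133 and 25 ± 9.14 CPM (SD, n = 3), so the means on I and III were not below N2 there. Of their called windows, 5, 2, 2 and 0 were also lower within prefix 1121. With TMM over windows of at least 10 CPM, 41, 14, 12 and 13 of the 48, 32, 19 and 17 calls stood.

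**Figure D4:**
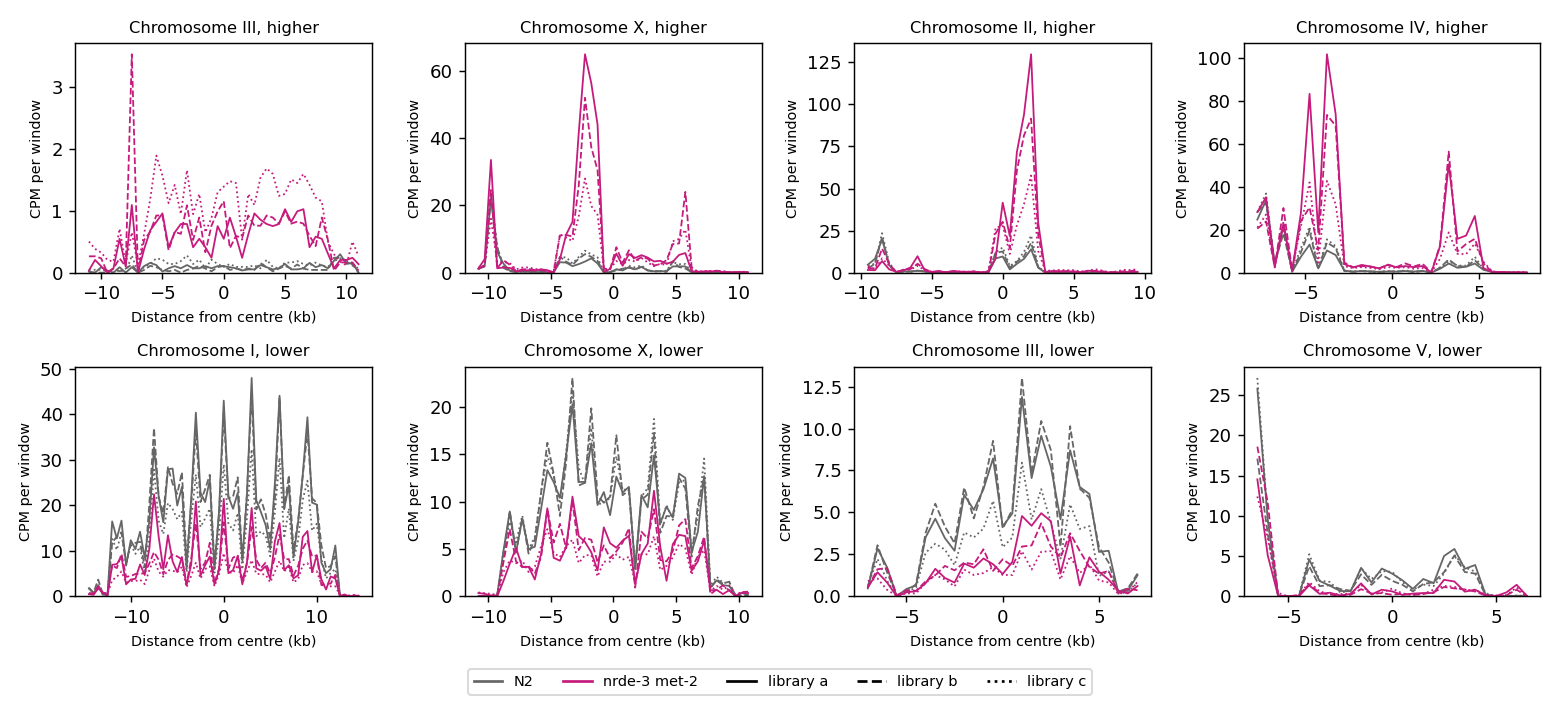
Level per window (CPM) along the 4 longest higher regions (top) and the 4 longest lower regions (bottom), against the distance from the centre of the region (kb), with 5 windows of flank on each side; grey lines are N2 libraries and pink lines nrde-3 met-2 libraries. The region on III at the top left stays low, mostly near 1 CPM, while the other higher regions rise in peaks of 20 CPM and more.

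Higher windows were spread over all chromosomes. They made up 15.7% of tested windows on I, 22.1% on II, 15.2% on III, 21.6% on IV, 28.3% on V and 26.7% on X. On each chromosome the central part held the largest percentage, from 16.5% on III to 30.4% on V. Over the autosomes it was 22.5% in the central parts and 19.2% in the outer parts. The 592 windows of at least 2 CPM also raised within the prefix went the other way, at 0.419% in the central and 0.663% in the outer parts. That order was seen only with the prefix call and the 2 CPM limit together. All 3302 higher windows also raised within the prefix made up 3.29% and 3.25%, and the 1749 of at least 2 CPM made up 1.82% and 1.7%. It was also uneven by chromosome, with 0.936, 0.594 and 0.184% in the left, central and right parts of III. Among windows under 1 CPM in N2 the difference between central and outer parts for all higher windows was wider, with 50.4% in the central and 37.9% in the outer parts of the autosomes and 46.4% on X. That class includes the windows under 0.1 CPM in N2, which passed the filter on low counts mainly through nrde-3 met-2 reads. The percentages of all higher windows by position therefore depend in part on that filter. In libraries a and c the quiet windows of the double mutant also held more reads in the centre, with 5.04 reads per window in the central parts of the autosomes in library a against 3.63 and 3.69 in the left and right parts, and 10 against 8.14 and 8.18 in library c. In library b they held 2.63 reads in the central, 2.53 in the left and 3.22 in the right parts. Their part in the count of higher windows was not tested. Chromosome ends within 100 kb held 231 higher and 172 lower windows of 1290 tested, 17.9% and 13.3%. Lower windows varied less, from 11.8% on X to 16.1% on III.

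**Figure D5:**
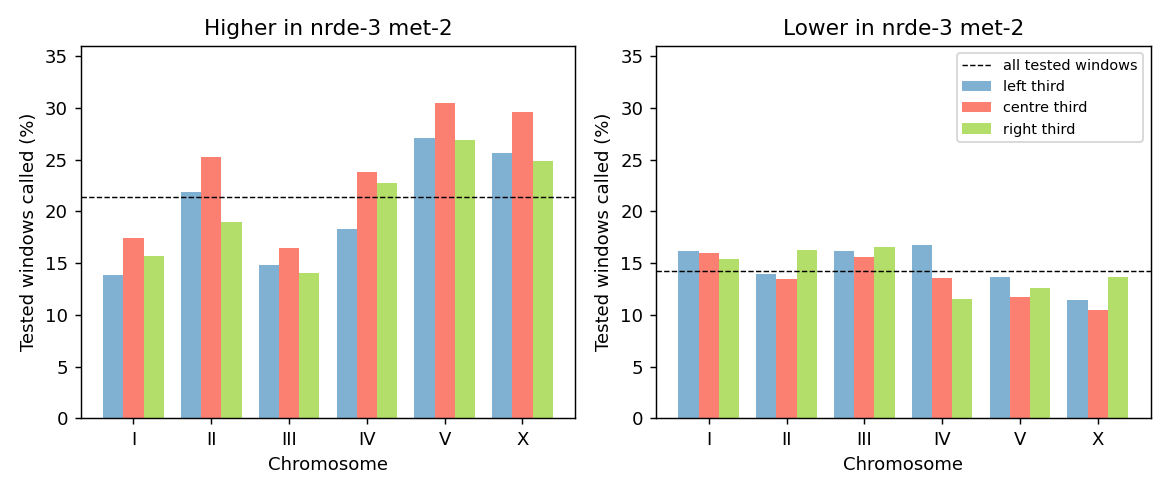
Percentage of tested windows called higher (left) and lower (right) in nrde-3 met-2 than in N2, by chromosome and by left, central and right part, each of equal length; dashed lines are the percentages over all tested windows, 21.4% and 14.2%. The central part is the highest of each chromosome in the left plot, and V and X lie above the line in all parts.

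The share of all reads by chromosome moved most on IV, from a mean of 24.1% in N2 to 19.2% in nrde-3 met-2. The most abundant window of each library held 3.49, 5.86 and 1.72% of all reads in nrde-3 met-2 libraries a, b and c. In N2 libraries a, b and c it held 1.77, 2.47 and 2.64%. Its part in the share of IV was not tested. X held 7.7, 7.46 and 7.4% of the reads in the N2 libraries and 8.87, 7.92 and 9.11% in nrde-3 met-2, without overlap. III rose in the same way from 16.4, 15.6 and 16.3% to 17.3, 17.2 and 17.9%. IV was lower without overlap, at 22.1, 16.5 and 18.9% against 22.4, 24.7 and 25%, and the shares of I, II and V overlapped between the groups. With 3 libraries a group these differences cannot pass an exact permutation test at 0.05.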

How the data were processed

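The authors deposited raw read counts per window of 500 bp, with totals that differ between libraries. The genome build is ce10, per the submitters' processing notes. The aligner, the counter and the treatment of reads with several matches are not given in the sources used here. Columns were matched to genotypes by name, and no label links the letters a, b and c to the numbered replicates. A further 6 columns of per-sample values were not used here. Per the labels, the input was 5 µg of total RNA with ribosomal RNA removed.

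The main test was the quasi-likelihood test of edgeR 4.0.16 under R 4.3.3, run on the 6 libraries with TMM factors after filterByExpr (minimum count 10), with 4 residual degrees of freedom and Benjamini-Hochberg adjustment. Only these libraries were fitted, because the spread of nrde-3 met-2 exceeds that of the other genotypes. The SE was taken as the log2 fold change over the square root of its F. The comparison within prefix 1121 used 12 libraries (8 degrees of freedom) and left out lin-61 met-2, whose libraries go against their label. Tested windows held 95.9 to 99.7% of the reads of the 6 libraries. Windows are named only if their mean log2 CPM reached 1 and the groups did not overlap. They are the 8 highest and 8 lowest log2 fold changes and, in each direction, the 3 with the highest level in N2, 1 per region. In each direction the 4 longest regions were named as well. The members, lists and rules were chosen with earlier results of these data known, as were the limit of 2 CPM and the scaling over windows of at least 10 CPM, both set after the values were seen. Tool alternatives used DESeq2 1.42.0. On simulated counts for nrde-3 met-2 against N2 (85806 windows), the test found 11 of 100 windows simulated at a log2 change of 1 and 93 of 100 at 2, and made 5 false calls. Changes were placed only in windows of at least 1 CPM. Both groups were given the same spread, and silent windows were not raised, unlike in the data. These numbers therefore do not describe the test at low levels or its false calls in the data. Summaries used Python 3.11.15 with pandas 2.3.3.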

Additional observations from a re-analysis of the deposited data

Results flagged for a closer look

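Reads in windows outside the tested comparison stood out in nrde-3 met-2. The mean level per quiet window was 0.164 ± 0.0866 CPM (SD, n = 3) in nrde-3 met-2, against 0.00525 ± 0.000598 CPM (n = 3) in nrde-3. That genotype has the same prefix and lacks the met-2 mutation. So do nrde-3 set-25 and lin-61 set-25, whose libraries were higher, at 0.00768 to 0.0161 and 0.00953 to 0.0251 CPM. Quiet windows had been chosen on N2 and lin-61 alone.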

How the results depend on the processing

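The counts of 20926 higher and 13911 lower windows against N2 became 31634 and 5530 with TMM over windows of at least 10 CPM, which was chosen after seeing the data, 7754 and 7180 with background subtracted, 64204 and 25737 without the low-count filter, and 5731 and 1166 in a model that adds up effects of each mutation and of prefix. That model rests on the label of lin-61 met-2. Leaving out 1 library gave 19841 to 50661 higher and 10082 to 27270 lower. RLE scaling, DESeq2 and a fit of all 21 libraries stayed within 1.5 times. Within prefix 1121, 4548 and 1154 became 2625 higher with background subtracted, 67730 and 13039 with no filter, 2763 and 12 with nrde-3 alone as the reference, 2313 lower with lin-61 met-2 included and 2405 lower with DESeq2. Leaving out 1 library there gave 3833 to 15721 higher and 715 to 4748 lower. With fewer libraries the filter on low counts let more windows pass. Against N2, 97776 windows were tested, 82135 with background subtracted, 200223 with no filter and 107036 to 138423 without 1 library. Within the prefix these numbers were 93966, 86662, 200295 and 96018 to 110858 in the same order. For the 22 named windows, 235 of 280 values kept direction and call, 41 lost the call and 4 reversed, all in the model with a prefix term: -0.0047 at I 11356001, 0.021 at IV 11326501, 0.74 at IV 11407001 and 0.91 at IV 7488001 on the log2 scale. The cause was not tested. The reversed values passed no threshold, and in that model only X 372001 and I 7155001 kept their calls. DESeq2 gave no adjusted p for 6 of the windows. No paired analysis was possible because the columns carry letters and not the replicate numbers of the titles. Depth limits windows of low level, since N2 was sequenced deeper than nrde-3 met-2.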
